A study of Mus musculus with 9 samples.

Results

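The genes described here build and read the extracellular matrix of the embryonic forebrain: 14 integrin subunits, 7 laminin chains, 9 other basement membrane and matrix genes, and 13 proteoglycan genes with their link protein. They were chosen by name, as 43 mouse symbols, with earlier results of these data known. All 43 were found among the 48526 gene identifiers of the table. Basement membranes are thin sheets of laminin and collagen IV, tied together by nidogen and perlecan, that line the outer surface of the brain and every blood vessel. Radial glia anchor their end feet to the outer sheet through integrins, which are pairs of 1 alpha and 1 beta subunit, and through dystroglycan. Between the cells of the developing brain the matrix is rich in hyaluronan, chondroitin sulphate proteoglycans such as neurocan and versican, and cell surface heparan sulphate proteoglycans, the glypicans and syndecans, which hold growth factors and guidance cues.

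RNA was sequenced from the medial ganglionic eminence (MGE), the ventral forebrain territory that makes many interneurons, of C57BL/6 mouse embryos at day 14.5. All 9 libraries carry Nkx2.1-cre, a recombinase under Nkx2-1 regulatory sequence that is active in the MGE, and the Rosa26-YFP reporter of recombination. Control replicates 1 to 3 carry no floxed Ctnnb1 allele, control replicate 4 is Ctnnb1fl/wt, and the 5 knockouts are Ctnnb1fl/fl. Ctnnb1 encodes beta-catenin, the Wnt effector and partner of cadherins at adherens junctions, and the comparison asks which transcripts differ after its deletion by this Cre. Cells outside the Nkx2-1 lineage, such as those of vessels and meninges, keep the gene, and the labels do not say whether cells were sorted or whether libraries came from separate embryos, so p-values rest on library-to-library spread alone, and this may be technical.

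Depth was alike, at 5120585 to 5569444 reads a library as inferred from the steps between the deposited values. Ctnnb1 was at 9828 ± 197 (standard deviation, SD, n = 4) normalized counts in control and 6789 ± 828 (SD, n = 5) in knockout, with no overlap (exact two-sided permutation p = 0.00794, the smallest these groups allow). The summed level of 10 MGE markers was 20798 to 35812 in the controls and 32340.5 to 40608 in the knockouts. Nkx2-1 was at 5718 ± 1033 and 4442 ± 782, and Dlx1 at 9019.7 ± 1816 and 12436 ± 1277. These 2, the most abundant genes of the list, were present in all 9 libraries. Of the 10 genes, 6 were higher and 0 lower in knockout at an adjusted p under 0.05 in limma's test. That compares with 17.2% higher and 17.3% lower of all genes tested. 2 libraries stood apart on summed markers of neighbouring tissue. The summed level of 10 cortical and choroid plexus markers, led by Ttr (701 ± 1326 and 217 ± 144) and Eomes (161 ± 274 and 56.9 ± 37.1), reached 4961 in control replicate 1. It was 99.6 to 173.8 in the remaining controls, with knockout values of 199.8 to 807. The summed level of 10 meningeal fibroblast markers reached 3727 in knockout replicate 5, with 734 to 1456 in the remaining knockouts and control values of 764 to 2269.

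The matrix genes changed in both directions in the knockout, as did all genes tested (17.2% higher and 17.3% lower). Glypicans, syndecans and integrin alpha subunits each held genes that rose and genes that fell. Fibronectin, the glypicans Gpc1 and Gpc4, syndecan-1, the laminin chains Lamb2 and Lama5, the collagen IV chain Col4a5 and the laminin receptor subunit Itga6 fell. The brain proteoglycans Ncan and Cspg5, the glypican Gpc2, agrin, syndecan-3 and the integrin subunit Itga3 rose. The calls of agrin and syndecan-3 were lost under several other settings or sets of libraries. The common collagen IV chains Col4a1 and Col4a2, the nidogens, Lamc1 and Itgb1 did not pass the test. Changes were moderate: the members that passed had knockout means between 51.9% (Gpc4) and 176% (Itga3) of the control mean.

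In numbers, 42 of the 43 members had a mean of at least 10 normalized counts and were tested, and Hapln1 was not. Of the 42, 6 rose and 11 fell at an adjusted p under 0.05 in limma's moderated test on log2(normalized count + 1), adjusted by Benjamini-Hochberg over all 13780 genes tested. That is 40.5% of the tested members, beside 34.5% of all genes tested, of which 17.2% were higher and 17.3% lower. The members' median log2 fold change was -0.01, as was that of all genes tested. The groups did not overlap for 11 members (4 higher and 7 lower), beside 29.1% of all genes. By class, 4 of 14 integrins, 2 of 7 laminins, 3 of 9 other basement membrane genes and 8 of 12 tested proteoglycans passed. Where single libraries are listed, the values are normalized counts in replicate order, and ± gives the SD over the 4 controls or 5 knockouts. Log2 fold changes are knockout minus control and are given with their standard error (SE); they understate the change of low genes. In bulk RNA, fewer cells of a type and less RNA per cell cannot be told apart. Without control replicate 1, 6 members rose and 9 fell, and without knockout replicate 5, 5 rose and 12 fell. When controls were limited to replicates 2 and 3, 3 rose (Gpc2, Ncan and Itga3) and 7 fell (Fn1, Gpc1, Gpc4, Sdc1, Lama5, Lamb2 and Itgb8).

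**Figure D1:**
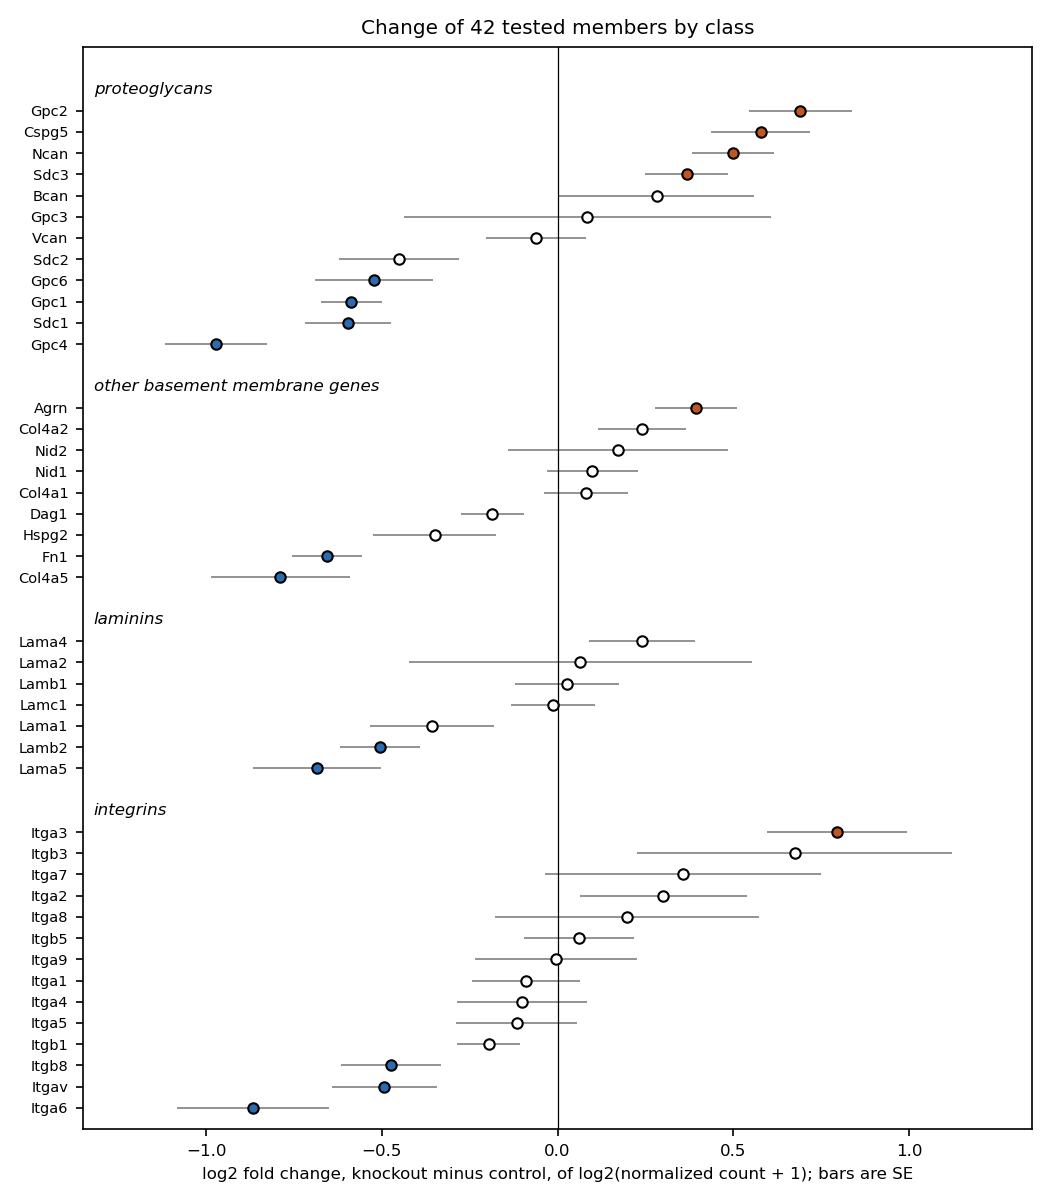
Log2 fold change of the 42 tested members, knockout minus control on log2(normalized count + 1), with SE bars, grouped by class; orange points rose, blue points fell and white points did not pass an adjusted p of 0.05. The 6 orange and 11 blue points lie in every class except the laminins, which have blue points only, and values run from -0.97 (Gpc4) to 0.80 (Itga3).

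The sequence before the start sites of 3 genes is shown because they are the members that passed the test and whose windows all held a GC box and no annotated exon: Lama5, which fell, and Agrn and Sdc3, which rose. Each is the 250 bases before a RefSeq start (GRCm38.p6), read 5′ to 3′ on the gene's strand, and capitals mark the GC box GGGCGG on either strand. Agrn has 2 starts in the table, and the counts per gene do not tell their transcripts apart.
Lama5, chr2:180225860-180226109, minus strand: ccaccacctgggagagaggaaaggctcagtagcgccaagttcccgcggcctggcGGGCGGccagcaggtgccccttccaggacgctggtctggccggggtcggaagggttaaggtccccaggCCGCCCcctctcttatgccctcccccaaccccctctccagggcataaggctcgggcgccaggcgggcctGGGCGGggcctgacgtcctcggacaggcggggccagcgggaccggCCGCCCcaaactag
Agrn upstream start, chr4:156197489-156197738, minus strand: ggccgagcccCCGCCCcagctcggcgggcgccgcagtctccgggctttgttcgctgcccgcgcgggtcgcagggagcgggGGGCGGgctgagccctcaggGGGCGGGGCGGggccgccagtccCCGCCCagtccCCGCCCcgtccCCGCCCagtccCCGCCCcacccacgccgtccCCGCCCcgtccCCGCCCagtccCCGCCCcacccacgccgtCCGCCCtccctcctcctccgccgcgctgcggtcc
Agrn downstream start, chr4:156186260-156186509, minus strand: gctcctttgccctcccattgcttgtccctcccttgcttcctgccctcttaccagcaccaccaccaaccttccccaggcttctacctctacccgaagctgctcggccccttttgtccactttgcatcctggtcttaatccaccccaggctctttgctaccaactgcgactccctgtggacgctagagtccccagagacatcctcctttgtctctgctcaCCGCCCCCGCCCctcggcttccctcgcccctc
Sdc3, chr4:130792287-130792536, plus strand: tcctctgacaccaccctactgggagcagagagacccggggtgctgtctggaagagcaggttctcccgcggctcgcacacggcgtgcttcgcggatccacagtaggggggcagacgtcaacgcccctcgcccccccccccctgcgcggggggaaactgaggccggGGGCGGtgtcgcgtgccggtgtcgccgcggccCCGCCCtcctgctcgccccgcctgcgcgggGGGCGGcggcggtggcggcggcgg
The Agrn upstream window held 12 GC boxes, some overlapping, and 35 CpG dinucleotides in 83.6% GC; the downstream window held 2, with 8 CpG and 60.8% GC. Lama5 had 4 GC boxes and Sdc3 had 3.

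Promoters were in the RefSeq table for 31 of the 43 members, in 34 windows. A GC box was found in 24 of these 34, against 32.7% of all 32851 windows, which include noncoding genes. The core TCAAAG bound by TCF/LEF factors, through which beta-catenin acts on genes, was found on either strand in 3 of the 34, those of Ncan, Itga1 and Lama2, against 13.8% of all windows. The TEAD core CATTCC was found in 3, those of Itgb1, Nid1 and Gpc4, against 12.6%. The members' windows held a median of 16 CpG dinucleotides and 64.2% GC, against 6 and 52.4% over all windows. None of the 4 windows printed holds either core. A match describes these letters in a short window and is not evidence of binding, nor does its lack say anything about the factor.

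Among the laminins, the heterotrimers of 1 alpha, 1 beta and 1 gamma chain that nucleate basement membranes, 2 of 7 chains fell and 0 rose (median log2 fold change -0.01; 2 of the 7 had an unadjusted p under 0.05 in limma's test). Lamb2, the beta-2 chain of synaptic, glial and vascular laminins (chromosome 9, 108479736 to 108490530), stood at 447, 441, 503 and 449 in control and at 329, 331, 256, 397 and 319 in knockout. Every knockout was below every control. The difference passed the test (log2 fold change -0.51 with SE 0.114 and adjusted p = 0.00368). Lama5, an alpha chain found in most adult basement membranes (chromosome 2, 180176373 to 180225859), stood at 110.2, 129, 125 and 82.7 in control and at 75.2, 83.7, 47.1, 68.9 and 71.5 in knockout. The 3 controls without a floxed allele lay above every knockout, and the heterozygous control replicate 4 lay just below knockout replicate 2 (log2 fold change -0.68, SE 0.182, adjusted p = 0.00971).

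The commonest gamma chain, Lamc1, stood at 314, 366, 377 and 468 in control and at 348, 346, 347, 445 and 396 in knockout. Both groups covered the same range and the difference did not pass (log2 fold change -0.01, SE 0.120, adjusted p = 0.948). Lamb1, the other beta chain, was at 227, 168, 169 and 190.3 in control and at 180.0, 168, 177, 173 and 271 in knockout. Knockout replicate 5 stood alone above the rest of its group there (adjusted p = 0.910). Lama1, the embryonic alpha chain, had log2 fold change -0.36 (adjusted p = 0.128), the vascular chain Lama4 0.24 (adjusted p = 0.234) and Lama2 0.06 (adjusted p = 0.930). In knockout replicate 5 Lama2 reached 60.5, with 8.61 to 25.9 elsewhere, and the meningeal marker sum was highest in the same library; its part in the Lama2 and Lamb1 values was not tested.

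Among the other basement membrane and matrix genes 2 of 9 fell and 1 rose (median log2 fold change 0.08). Fn1, fibronectin, a ligand of several integrins (chromosome 1, 71585520 to 71653200), stood at 1465, 1649.8, 1411 and 1667 in control and at 989, 1137, 884, 868 and 1046 in knockout. No knockout reached the lowest control, and the mean was 63.6% of control (log2 fold change -0.66 with SE 0.0987 and adjusted p = 0.000310). Col4a5, the alpha-5 chain of collagen IV (chromosome X, 141475385 to 141689234), stood at 120.3, 125, 152 and 147 in control and at 75.2, 74.999, 49.2, 115 and 90.7 in knockout. Knockout replicate 4 came closest to the controls without reaching them (log2 fold change -0.79 with SE 0.197 and adjusted p = 0.00719; adjusted p = 0.0552 with controls limited to replicates 2 and 3).

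Agrn, agrin, a large heparan sulphate proteoglycan that binds laminin and dystroglycan and organises synapses (chromosome 4, 156165290 to 156197488), moved the other way. It stood at 2659, 3715, 4214 and 3173 in control and at 4185, 4263, 4304, 4801 and 4758 in knockout. Control replicate 3 lay just above the lowest knockout, and control replicate 1 was the lowest library (log2 fold change 0.39 with SE 0.117 and adjusted p = 0.0174). The call was lost without control replicate 4 (adjusted p = 0.0569) and with controls limited to replicates 2 and 3 (log2 fold change 0.17, adjusted p = 0.222).

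The abundant collagen IV pair did not pass. Col4a1 stood at 739, 944, 928 and 1174 in control and at 929, 1006, 1024, 879 and 1117 in knockout, and its groups overlapped widely (log2 fold change 0.08, SE 0.119, adjusted p = 0.627). Col4a2, its partner in the common collagen IV trimer, was at 592 ± 109 and 696 ± 94.5 (log2 fold change 0.24, SE 0.126, adjusted p = 0.151; adjusted p = 0.0408 without control replicate 4). The pair is annotated head to head on chromosome 8, with Col4a1 ending at 11312826 on the minus strand and Col4a2 starting at 11312805 on the plus strand. Per kilobase, the Col4a2 level was 0.683 to 0.740 of the Col4a1 level in the controls and 0.740 to 0.842 in the knockouts; the highest control and the lowest knockout lay side by side. Endothelial and mural markers, of cells that deposit collagen IV in vessel walls, also overlapped between the groups: the 12 endothelial genes summed to 1893 to 2661 in the controls and 2123 to 2493 in the knockouts, with 0 of 12 called by limma (0 at an unadjusted p under 0.05), and the 10 mural genes to 1567 to 1974 in the controls and 1709.6 to 1863 in the knockouts. Of the mural genes 1 of 10 was called, the receptor gene Notch3, from 683 ± 111 to 443 ± 98.8 normalized counts. Rgs5 was at 496 ± 86.1 and 558 ± 88.9. Notch3 had the highest mean of the 10 and counts heavily in their sum, while their median log2 fold change was 0.18. The endothelial markers with the highest means were Slc2a1, at 680.3 ± 113 and 579 ± 40.0, and Cldn5, at 319 ± 54.6 and 385 ± 69.6. The part of vessel content in the collagen IV values was not tested.

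Dag1, dystroglycan, which binds laminin and agrin through its sugar chains, was at 843, 888, 865 and 847 in control and at 699, 702, 710.2, 864 and 823 in knockout. The groups overlapped and the difference did not pass (log2 fold change -0.19, SE 0.0891, adjusted p = 0.120). Hspg2, perlecan, had log2 fold change -0.35 (adjusted p = 0.140), the linker nidogen Nid1 0.10 (adjusted p = 0.585) and Nid2 0.17 (adjusted p = 0.702). Nid2 was highest in knockout replicate 5 (292) and control replicate 1 (230.4). In their groups these libraries had the highest meningeal sums and also the highest cortical and choroid plexus sums. The part of such tissue in the Nid2 values was not tested.

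Of the integrins, 1 of 10 alpha subunits rose, 2 fell, and 1 of 4 beta subunits fell. Itga6, which pairs with Itgb1 or Itgb4 as a laminin receptor (chromosome 2, 71745616 to 71858416), stood at 333, 307, 301 and 326 in control and at 152, 207, 110.3, 286 and 156 in knockout. The controls lay within a narrow band and the knockouts were spread below it, with knockout replicate 4 near the controls (log2 fold change -0.87 with SE 0.218 and adjusted p = 0.00993; adjusted p = 0.105 with controls limited to replicates 2 and 3). Itga3, the alpha subunit of another laminin receptor (chromosome 11, 95044474 to 95076801), stood at 43.5, 35.8, 34.2 and 25.9 in control and at 44.5, 58.7, 58.2, 67.0 and 77.6 in knockout. Control replicate 1 and knockout replicate 1 almost met, and the heterozygous control was lowest (log2 fold change 0.80 with SE 0.199 and adjusted p = 0.00706).

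Itgav, the alpha subunit of receptors for fibronectin, vitronectin and latent TGF-beta, stood at 107, 81.4, 95.5 and 113 in control and at 83.1, 69.2, 62.2, 74.6 and 61.5 in knockout. Control replicate 2 lay below knockout replicate 1 (log2 fold change -0.49 with SE 0.149 and adjusted p = 0.0192), and the call was lost without control replicate 1 (adjusted p = 0.0518) or 4 (0.0693). Itgb8, the beta subunit that pairs with Itgav and through which neuroepithelial cells contact brain vessels, stood at 439.7, 619.8, 569 and 668 in control and at 424, 458, 420.3, 463 and 299 in knockout. Control replicate 1 fell among the knockouts, and knockout replicate 5 was lowest (log2 fold change -0.47 with SE 0.143 and adjusted p = 0.0200). The Itgb8 call was lost without control replicate 2 (adjusted p = 0.0542) or 4 (0.0720).

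Itgb1, the shared partner of most alpha subunits, was at 1193, 1343, 1249 and 1308 in control and at 1203, 1167, 1140.5, 1119 and 941 in knockout. Its groups overlapped (log2 fold change -0.20, SE 0.0894, adjusted p = 0.103). Itgb5 was at 171, 162, 149.7 and 154 in control and at 136, 121, 194, 185 and 215 in knockout, with knockouts on both sides of the controls (adjusted p = 0.788). The fibronectin receptor subunit Itga5 had log2 fold change -0.12 (adjusted p = 0.630), and the collagen receptor subunits Itga1 and Itga2 -0.09 and 0.30 (adjusted p = 0.684 and 0.349). Itga4, Itga7, Itga8, Itga9 and Itgb3 were low, at means of 8.49 to 36.3 normalized counts over either group, with log2 fold changes from -0.10 to 0.68 and adjusted p from 0.260 to 0.991. Their SE ran from 0.186 (Itga4) to 0.448 (Itgb3).

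**Figure D2:**
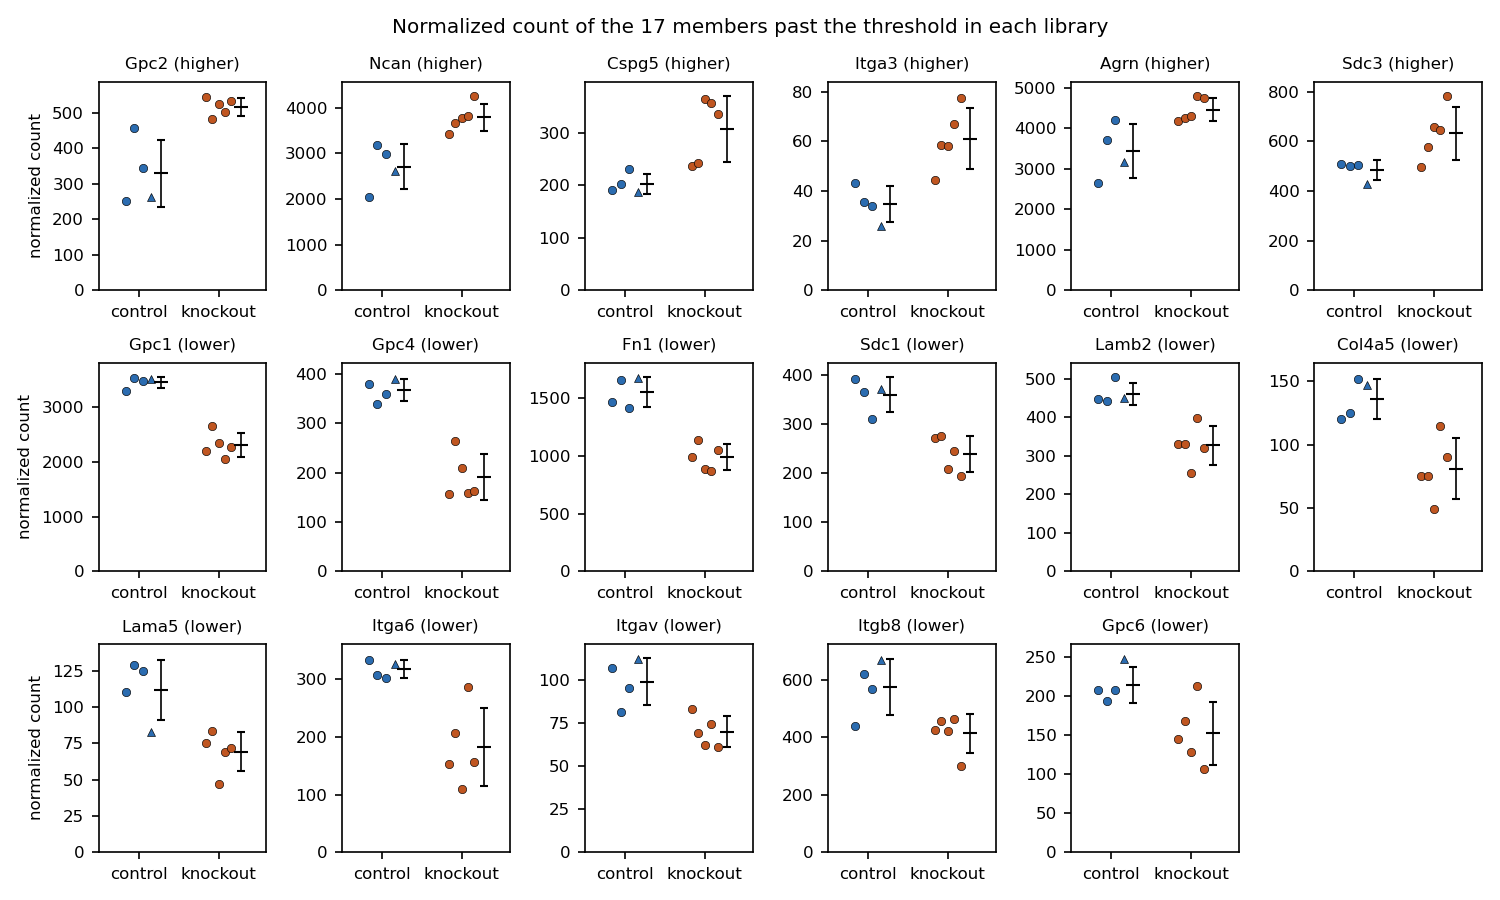
Normalized count of the 17 members past the threshold by library, on axes that start at 0; bars give group mean and SD, and the triangle marks control replicate 4, the heterozygote. The groups are apart for 11 of the 17 genes and overlap for Agrn, Sdc3, Lama5, Itgav, Itgb8 and Gpc6.

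The proteoglycans held the largest share of calls, with 4 of 12 tested members higher and 4 lower. Those of the chondroitin sulphate type, which sit in the pericellular matrix of neurons and glia, gave 2 calls among 4 tested, both higher. Ncan, neurocan, a nervous system proteoglycan that binds hyaluronan and L1-family adhesion molecules (chromosome 8, 70093085 to 70120873), stood at 2053, 3185, 2996 and 2615 in control and at 3429, 3670.2, 3784, 3831 and 4249 in knockout. All knockouts exceeded all controls (log2 fold change 0.50 with SE 0.117 and adjusted p = 0.00479). Cspg5, neuroglycan C, a transmembrane proteoglycan of neurons (chromosome 9, 110243783 to 110262576), stood at 190.0, 203, 230.1 and 186 in control and at 237, 241, 363, 356 and 335 in knockout. Knockout replicates 1 and 2 lay just above the highest control and the others well above it (log2 fold change 0.58 with SE 0.142 and adjusted p = 0.00625; adjusted p = 0.0909 with controls limited to replicates 2 and 3).

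Versican and brevican did not pass. Vcan, a large hyaluronan-binding proteoglycan that borders migration routes, was at 1008, 1441, 1531 and 1100.1 in control and at 1459, 1384, 1045, 1129 and 1043 in knockout (log2 fold change -0.06, SE 0.142, adjusted p = 0.771). Bcan was at 323, 238, 251 and 108 in control and at 265, 217, 302, 231 and 297 in knockout, lowest in the heterozygous control (log2 fold change 0.28, SE 0.277, adjusted p = 0.465). Hapln1, the link protein that locks these proteoglycans onto hyaluronan, was near the limit of counting. It stood at 2.02, 1.99, 6.03 and 8.97 in control and at 0.989, 0.962, 3.01, 0 and 2.02 in knockout. It was below the level tested, and it is the next gene to Vcan on chromosome 13.

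The glypicans, anchored to the membrane by a lipid, split: of 5, 3 fell and 1 rose. Gpc4 (chromosome X, 52053021 to 52165252), known from progenitors of the ventricular zone, stood at 380.0, 339.7, 359.7 and 391 in control and at 157, 264, 209.6, 159 and 163 in knockout. The knockout mean was 51.9% of control, the lowest of all members tested, with no overlap (log2 fold change -0.97 with SE 0.144 and adjusted p = 0.000290). Gpc1 (chromosome 1, 92831645 to 92860779), the most abundant member per kilobase in the controls, stood at 3294, 3527, 3471 and 3502 in control and at 2199, 2653, 2345, 2052 and 2267 in knockout. The gap between the groups was wider than either group's range (log2 fold change -0.59 with SE 0.0868 and adjusted p = 0.000279). Gpc6 stood at 207, 194, 207 and 247 in control and at 144, 168, 128, 212 and 107 in knockout. Knockout replicate 4 lay among the controls (log2 fold change -0.52 with SE 0.168 and adjusted p = 0.0264), and the call was lost without control replicate 1 (adjusted p = 0.0506), control replicate 4 (0.0872), knockout replicate 1 (0.0500482) or knockout replicate 3 (0.0653).

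Gpc2 (chromosome 5, 138273655 to 138280005), a glypican of developing neurons, went up. It stood at 253, 459, 345 and 262 in control and at 545, 483, 526, 501 and 533 in knockout. The knockouts formed a tight group above the controls, of which replicate 2 came closest (log2 fold change 0.69 with SE 0.147 and adjusted p = 0.00296; log2 fold change 0.38, adjusted p = 0.0432 with controls limited to replicates 2 and 3). In GENCODE M21 another gene on the same strand, Gm43720, covers 55.6% of the Gpc2 exons, and 18.9% of the Gpc1 exons overlap Ankmy1 on the other strand. The table lists Gm43720 at 0 to 1.005 and Ankmy1 at 0 to 3.96 normalized counts, so the levels of Gpc2 and Gpc1 relative to other genes are uncertain. Gpc3, which lies next to Gpc4 on the X chromosome, did not pass. Gpc3 stood at 205, 63.6, 42.2 and 102 in control and at 71.2, 85.6, 50.2, 110.0 and 194 in knockout (log2 fold change 0.08, SE 0.522, adjusted p = 0.917). Its highest values were in control replicate 1 and knockout replicate 5. In their groups these libraries had the highest meningeal sums and also the highest cortical and choroid plexus sums. The part of such tissue in the Gpc3 values was not tested.

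The syndecans, transmembrane heparan sulphate proteoglycans that act as co-receptors of integrins and growth factors, also split. Sdc1 (chromosome 12, 8771323 to 8793715), the syndecan typical of epithelia, stood at 392, 366, 310.5 and 373 in control and at 271, 277, 209, 246 and 195 in knockout. Each knockout was below each control (log2 fold change -0.60 with SE 0.121 and adjusted p = 0.00200). Sdc2 stood at 87.9, 83.4, 84.4 and 90.7 in control and at 49.5, 51.9, 60.2, 85.2 and 75.6 in knockout. Knockout replicate 4 overlapped the controls and the difference just missed the threshold (log2 fold change -0.45, SE 0.171, adjusted p = 0.0538; 0.0211 without knockout replicate 4 and 0.0384 without knockout replicate 5). Sdc3 (chromosome 4, 130792537 to 130826319), the syndecan typical of neurons, stood at 510.4, 499.6, 503 and 426 in control and at 498, 577, 656, 645 and 783 in knockout. Only knockout replicate 1 overlapped the controls (log2 fold change 0.37 with SE 0.118 and adjusted p = 0.0257). The Sdc3 call was lost without control replicate 4 (adjusted p = 0.0901), knockout replicate 3 (0.0581), 4 (0.0520) or 5 (0.0514).

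Levels can be set against each other only per kilobase of merged exons, without a test. On that scale Gpc1 (668 ± 20.4 normalized counts per kilobase), Ncan (377 ± 69.4), Agrn (371 ± 72.4) and Itgb1 (312 ± 16.2) led in control. In knockout the order was Ncan (527 ± 41.5), Agrn (481 ± 31.6), Gpc1 (446 ± 43.3) and Itgb1 (273 ± 24.9). This order is uncertain: with the length limited to exons that no other gene overlaps, an alternative chosen after seeing the data, Gpc1 led in both groups (825 ± 25.2 and 551 ± 53.4). Itga6 made up 42.7% ± 1.09 of the summed alpha subunit level in control and 28.6% ± 6.16 in knockout, and Itga3 7.42% ± 1.41 and 15.6% ± 2.84; neither range overlapped between the groups. Gpc4 made up 14.5% ± 0.958 and 10.2% ± 1.78 of the glypican level, and Gpc2 8.06% ± 2.27 and 17.4% ± 1.81. With the length limited in that way the Gpc4 shares were 11.5% ± 1.02 and 7.46% ± 1.40, and those of Gpc2 14.3% ± 3.66 and 28.6% ± 2.58, so Gpc2 then exceeded Gpc4 on average in control too. Sdc1 held 47.2% ± 3.05 of the syndecan level in control against 34.0% ± 6.94 in knockout, while Sdc3 held 40.5% ± 3.21 against 56.3% ± 6.02. Sdc1 thus had the higher mean share in control and Sdc3 in knockout.

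**Figure D3:**
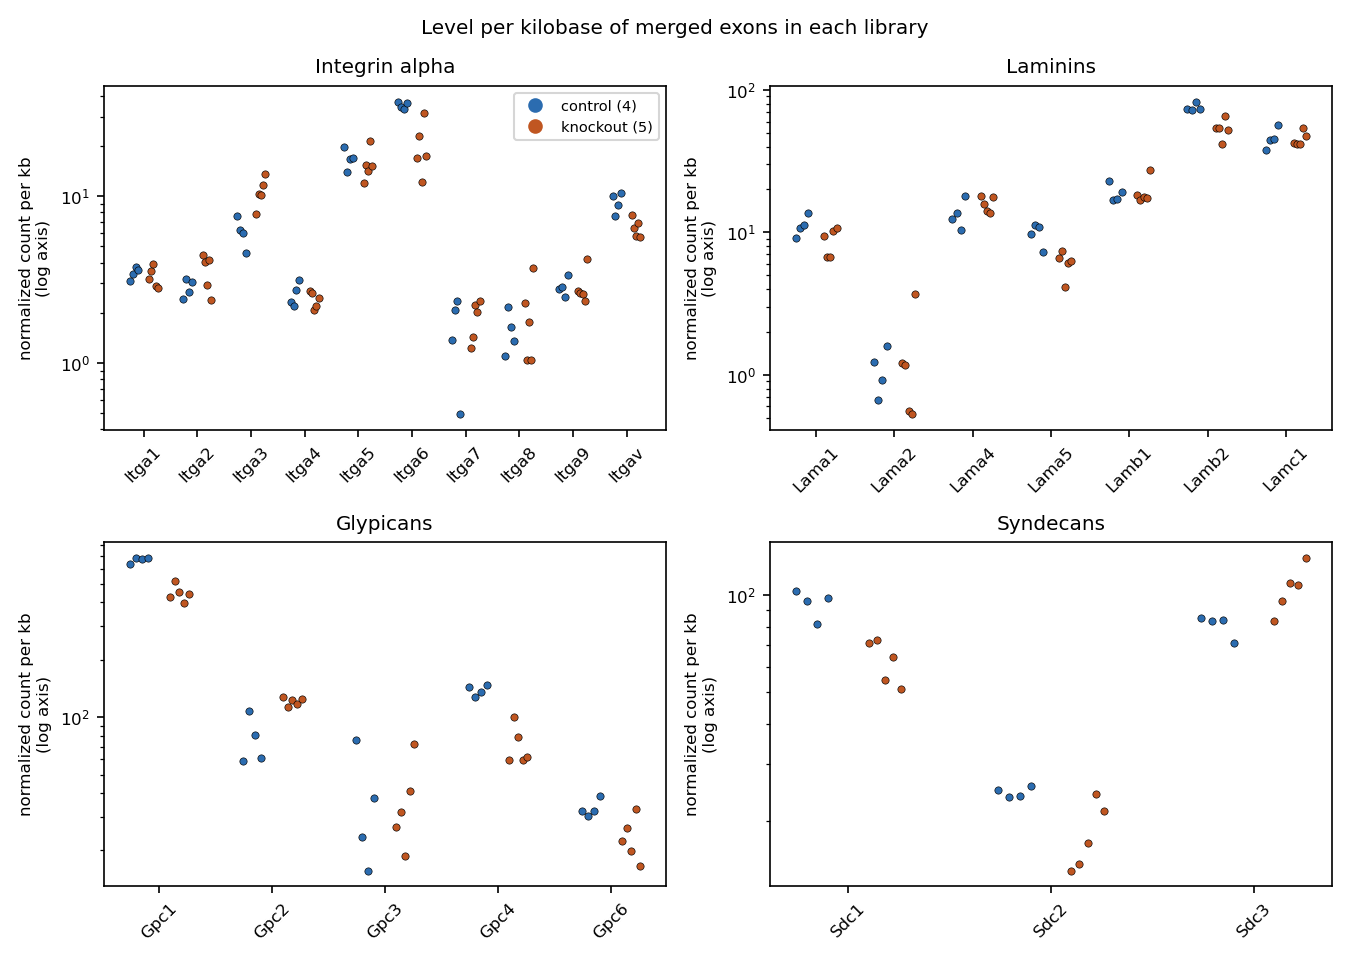
Normalized count per kilobase of merged exons for integrin alpha subunits, laminins, glypicans and syndecans in each library, on log axes, with the 4 controls in blue and the 5 knockouts in orange. Itga6 falls towards Itga5 while Itga3 rises, and the mean of Sdc3 passes that of Sdc1; the heights of Gpc2 and Gpc1 against other genes are uncertain because of shared exons.

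Genes that act with this matrix were taken from 6 lists made for this comparison, with no member of the module in them. These lists, too, were made with earlier results of these data known. Of 114 tested, 23 rose and 17 fell, beside 17.2% and 17.3% of all genes. In the integrin adhesion and signalling list, 4 of 24 rose and 7 fell (median log2 fold change -0.15). Actn1, alpha-actinin-1, which ties integrins to actin, went from 555 ± 48.7 to 296 ± 32.3 normalized counts (log2 fold change -0.91 with SE 0.103 and adjusted p = 5.85e-05). Lims1, the adaptor PINCH1, fell from 529 ± 16.5 to 328 ± 38.3 (log2 fold change -0.69 with SE 0.0983 and adjusted p = 0.000220). The kinase gene Src rose from 863 ± 100.5 to 1236 ± 126 (log2 fold change 0.52 with SE 0.102 and adjusted p = 0.00155). When controls were limited to replicates 2 and 3, 2 of the list rose. Ilk, which Lims1 binds, could not be judged: 89.7% of its exons overlap Rrp8 or Taf10, and it was listed at 0 to 3.03.

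Dystroglycan is active only with its long sugar chain. In the list of its glycosylation and of the dystrophin complex, 2 of 16 rose and 1 fell. Dtna, alpha-dystrobrevin, rose by 0.92 on the log2 scale, and the mannosyltransferase gene Pomt2 had log2 fold change -0.33. Pomt2 did not pass without control replicate 3, knockout replicate 3 or knockout replicate 4.

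The enzymes that make and trim heparan sulphate, the sugar of glypicans, syndecans and agrin, gave 6 higher and 2 lower of 19. Sulf2, an extracellular sulphatase that removes 6-O-sulphate, rose from 516 ± 98.5 to 1208 ± 255 (log2 fold change 1.22 with SE 0.166 and adjusted p = 0.000299). B4galt7 (log2 fold change 0.91) and B3gat3 (0.43), which build the linker between protein and sugar, also rose. Without control replicate 3, 3 of the list rose. No gene of it fell without control replicate 4 or knockout replicate 3, and 1 fell without control replicate 1, knockout replicate 4 or knockout replicate 5.

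In the chondroitin sulphate and hyaluronan list 5 of 18 rose and 4 fell. Tnr, tenascin-R, a partner of the neurocan family, rose from 23.8 ± 7.58 to 56.0 ± 14.6 (log2 fold change 1.23 with SE 0.258 and adjusted p = 0.00244). Hmmr, a hyaluronan-binding protein that also serves the mitotic spindle, had log2 fold change -0.68, and the chondroitin 6-sulphotransferase gene Chst3 -0.75. The number that rose was 2 without control replicate 1, control replicate 4 or knockout replicate 1, and 3 without control replicate 3 or knockout replicate 4.

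Collagen folding and crosslinking genes mostly did not pass, with 1 higher and 1 lower of 17. Serpinh1, the collagen chaperone, fell from 1529.6 ± 341 to 1047 ± 141 (log2 fold change -0.53 with SE 0.140 and adjusted p = 0.0104), and P4ha2, a prolyl hydroxylase subunit, rose by 0.90 on the log2 scale from a mean of 15.0. No gene of the list rose without control replicate 4, knockout replicate 4 or knockout replicate 5, while 3 fell without control replicate 3 and 2 without knockout replicate 4 or 5. Of the matrix proteases and inhibitors 5 of 20 rose and 2 fell. Mmp24, a membrane-bound metalloprotease of neurons, rose from 106 ± 15.2 to 345 ± 104 (log2 fold change 1.66 with SE 0.196 and adjusted p = 0.000127), and Adamts4, which cleaves neurocan-type proteoglycans, by 0.82 on the log2 scale. Adamts20 fell by 1.03 on the log2 scale. The number of proteases that fell was 1 without any 1 library other than control replicate 2.

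Markers of radial glia and neurons also differed between the groups. The 11 radial glia genes summed to 19760.2 to 25716 in the controls and 12150.5 to 15373 in the knockouts, with 6 lower and 0 higher. Slc1a3, Fabp7 and Pax6 had log2 fold changes above 0 (0.23, 0.04 and 1.09) and did not pass. The Pax6 estimate was imprecise (SE 1.32). Its counts peaked in knockout replicate 4 (493), followed by control replicate 1 (234), and every remaining library was below 102. The cause of these 2 high Pax6 values was not tested. The most abundant of the 11 were Vim, vimentin, at 8169 ± 1344 and 4353 ± 468, and the transcription factor gene Sox2. Sox2 was at 4062 ± 218 and 3455 ± 378 normalized counts and did not pass (adjusted p = 0.0579 in limma's test). The 10 neuronal genes summed to 15499.5 to 18959 in the controls and 27273 to 35457 in the knockouts, with 7 higher and 0 lower. Of all genes tested, 17.2% were higher and 17.3% lower. The marker lists were also made with earlier results of these data known. Tubb3, neuronal tubulin, was at 7534 ± 685 and 11908 ± 1539.9, and Dcx, doublecortin, at 3129 ± 839 and 7701 ± 819.7. Both sums were apart between the groups, and their part in the changes of Fn1, Gpc4, Itga6, Ncan, Gpc2 and Sdc3 was not tested.

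No other cell type had sums fully apart between the groups. The sums of meningeal fibroblast genes, led by Col3a1 (353 ± 191 and 429.8 ± 359.7) and Col1a2 (324 ± 197 and 400.2 ± 372), overlapped. Those of microglia were 359.5 to 515 in the controls and 242 to 459 in the knockouts, overlapping through knockout replicate 5 alone. The other knockouts, at 242 to 290, lay below every control. The median log2 fold change of the microglial genes was -0.46. Among them Csf1r was at 94.0 ± 20.7 and 70.0 ± 26.5, and C1qb at 67.7 ± 21.6 and 49.9 ± 25.2. Erythroid sums were 2721 to 11042 in the controls and 3247 to 7777 in the knockouts. They were led by the globin genes Hbb-y (3518 ± 3612 and 991 ± 287) and Hbb-bs (1633 ± 1238 and 1955 ± 861). The heterozygous control replicate 4 had the highest Hbb-y value of all 9 libraries (8834) and the lowest Hbb-bs value (619). Hbb-y was 2452, 793 and 1995 in control replicates 1 to 3. The meningeal gene Crabp2 also peaked in control replicate 4 (646), and no other library exceeded 275. The cause was not tested, nor was its part in the calls lost without control replicate 4. In limma's test 0 of 10 meningeal, 0 of 9 microglial and 0 of 7 erythroid genes passed, with 1, 3 and 0 at an unadjusted p under 0.05. No list had a marker at 0 in all 9 libraries.

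**Figure D4:**
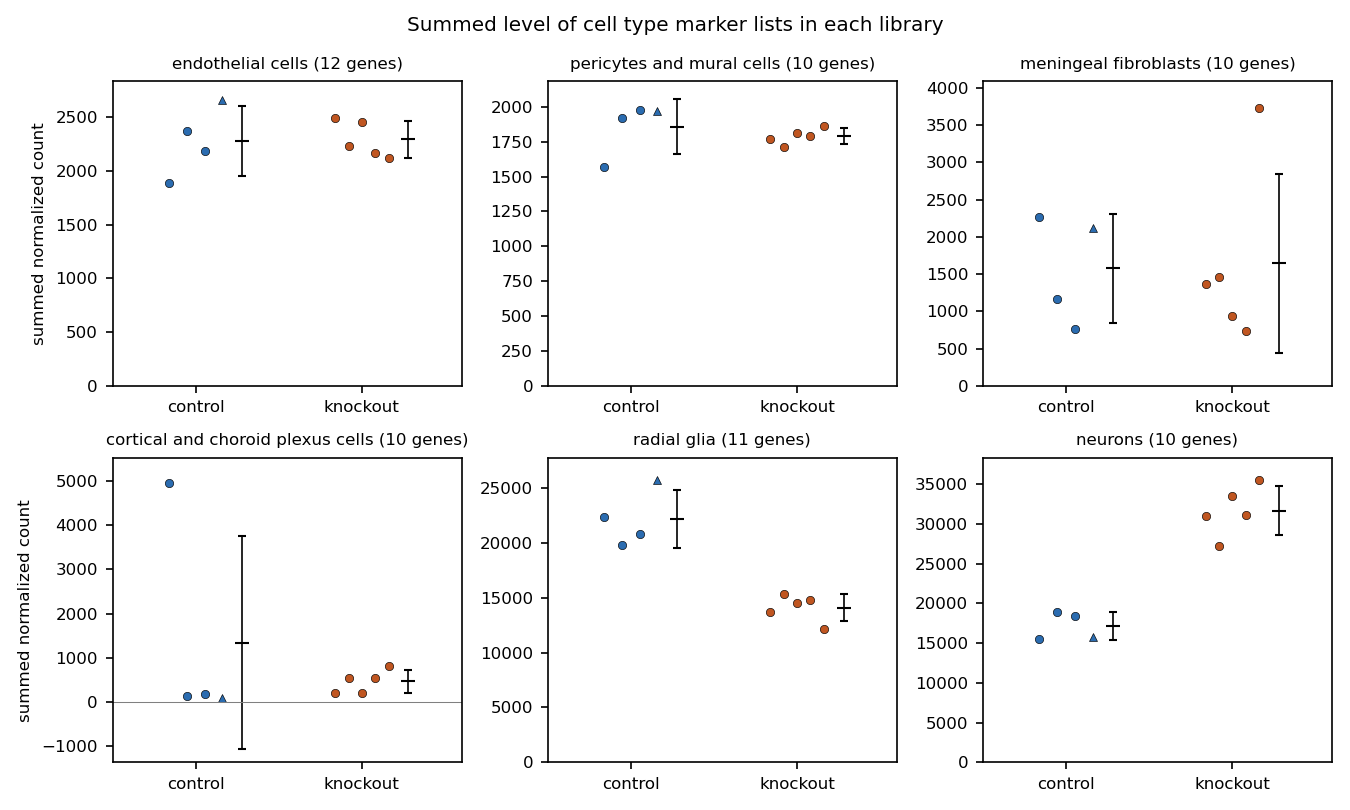
Summed normalized count of 6 marker lists by library; bars give group mean and SD, and the triangle marks control replicate 4, the heterozygote. Radial glia and neuronal sums are apart between groups, endothelial and mural sums overlap, control replicate 1 reaches 4961 on the cortical and choroid plexus list and knockout replicate 5 reaches 3727 on the meningeal list.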

How the data were processed

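RNA of 9 MGE libraries was sequenced, 4 control and 5 knockout, from 500 ng of total RNA each per the labels. The deposited values are signal on a linear scale: the authors' gene counts divided by a size factor of each library, of 0.989 to 1.05 here. Per the submitters' processing notes the tools were TopHat2 2.1.1, HTSeq 0.9.1, DESeq2 and R 3.4.0, with the mm10 build; the annotation release and strand setting were not given in the sources used here. Each value was a whole multiple of 1 step of its library within 0.01 of a step, and reads were inferred by dividing by that step. A stricter check did not accept the inferred reads in most libraries, so they are given for depth alone and no count model was fitted.

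Symbols, positions and merged exon lengths came from GENCODE M21 (mm10). Genes with a mean of at least 10 were tested as log2(value + 1) with limma 3.58.1 (trend and robust empirical Bayes, R 4.3.3), all 9 libraries in 1 fit and Benjamini-Hochberg adjustment over 13780 genes. The script was tested on simulated data. The members and lists were chosen with earlier results of these data known. Values in every library are given, per class, for up to 6 called members with the smallest p and the 2 others with the highest mean; those of Gpc3, Gpc6, Hapln1, Sdc2 and Sdc3 are given beside them, and up to 3 called genes stand for each list of other genes and 2 for each marker list. The values of 1 gene that this rule names are not reported here. Alternatives were pseudocounts of 0.5 and 8, no filter, a mean of 50, trimmed-mean and upper-quartile scaling, limma without trend and robust, library quality weights, replicate number as a block, Xist as a covariate, fewer controls, and each library left out in turn; length without shared exons was added after seeing the data.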

Additional observations from a re-analysis of the deposited data

Results flagged for a closer look

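Within each group, 84 in all, the sample farthest from the others was compared with the group's range by Dixon's test at 95%, which chance passes in about 1 in 20 groups. It marked 6. Knockout replicate 5, which also had the highest meningeal marker sum, accounted for 4 of them. Itga9 was at 32.2 normalized counts there against 18.2 to 20.8 in the other knockouts. Lama2 was at 60.5 against 8.61 to 19.8, and Lamb1 at 271 against 168 to 180.02. Itgb8 was lower, at 299 against 420.3 to 463. In the controls, Lamb2 was at 503 in replicate 3 against 441 to 449, and Sdc3 at 426 in the heterozygous replicate 4 against 499.6 to 510.4.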

How the results depend on the processing

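No member with a call changed direction under any alternative, and 9 of the 17 called members (Fn1, Gpc1, Gpc4, Gpc2, Sdc1, Ncan, Lamb2, Lama5 and Itga3) passed in every setting in which they were tested, Itga3 being untested at a minimum mean of 50. With 1 library left out at a time, 5 to 6 members rose and 8 to 12 fell. Over all genes 1857 to 2390 rose and 1686 to 2417 fell, and over the 114 other matrix genes 17 to 22 rose and 11 to 17 fell, with 11 without knockout replicate 3. The log2 fold change of Ctnnb1 was -0.59 to -0.47. When controls were limited to replicates 2 and 3, 3 members rose and 7 fell, 1387 and 1112 of all genes did, and 13 of the other matrix genes rose; fewer libraries enter that fit. Replicate numbers are shared between the groups, but same-numbered libraries had correlations of -0.12, -0.09, 0.14 and -0.04, and 0 of 4 controls and 1 of 4 knockouts correlated best with their own number. With the replicate number as a block 5 members rose and 11 fell: Itgav (adjusted p = 0.0592 in limma) and Sdc3 (0.0838) lost their calls and Hspg2 (0.0248) gained one. In that fit 1829 of all genes rose and 1681 fell, and 15 of the other matrix genes rose. Knockout replicate 5 is the only library with its number, so it adds nothing to the contrast there. Its part in the lower counts was not tested. With library quality weights 4 members rose and 12 fell: Agrn, Itgav and Sdc3 lost their calls, and Dag1 and Sdc2 gained one. Without trend and robust, limma gave 5 higher and 9 lower members, and Gpc6, Itgb8 and Sdc3 lost their calls. Xist as a covariate left 6 higher and 11 lower members. Of the members without a call, Sdc2, Col4a2, Hspg2 and Dag1 passed in at least 1 setting each. Without shared exons the levels per kilobase of Gpc1 and Gpc2 were higher, as given with the levels; fold changes do not use length. Precision differed between members. The SE was 0.186 for Itga4 and 0.448 for Itgb3, both low, and 0.522 for Gpc3, at a mean of 103. The cause of these differences was not tested.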
